A study of Mus musculus with 6 samples.

Results

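The genes described are 10 transcripts of neutrophil granules and of calprotectin, out of 57180 genes in the deposited table, chosen by name and grouped by where their proteins are stored. Neutrophils load their granules in sequence as they mature in the bone marrow. Primary (azurophil) granules are filled first, at the promyelocyte stage, with myeloperoxidase (Mpo) and the serine proteases neutrophil elastase (Elane), proteinase 3 (Prtn3) and cathepsin G (Ctsg). Secondary (specific) granules follow with neutrophilic granule protein (Ngp), the cathelicidin precursor (Camp), lactotransferrin (Ltf) and lipocalin 2 (Lcn2). Calprotectin is the calcium- and zinc-binding heterodimer of S100a8 and S100a9, which is held in the cytosol rather than in granules and is also made by monocytes. Transcripts of primary granule proteins are largely shut off before a neutrophil leaves the marrow, whereas S100a8 and S100a9 are abundant in circulating neutrophils.

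The libraries are RNA-seq profiles of lymphocytes recovered from tumors of mice bearing Hepa1-6, a mouse hepatoma cell line. All 6 were from mice injected through the tail vein with the TREND delivery system carrying plasmids for CasRx, an RNA-cutting CRISPR nuclease, and received either a mock guide (the 3 Mock sgRNA libraries) or one directed at the amino acid transporter SLC43A2 (the 3 SLC43A2 sgRNA libraries). Strain, age and sex were not given in the sources used here, nor was it stated that each library came from a separate mouse, so p-values measure the spread between these libraries, which may be technical. Values are TPM, the share of a library that a transcript makes up after adjustment for length, so levels can be set side by side across genes, and depth is unknown.

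The whole table was compared between the groups before these genes were read. Slc43a2 itself read 6.68, 4.18 and 4.79 TPM under the mock guide against 3.5, 2.4 and 4.15 TPM under its own guide, and did not pass the threshold (log2 difference -0.52, limma adjusted p = 0.113). The 10 T cell genes listed (CD3 and T cell receptor constant genes, Cd2, Cd5 and Lck) were read in both groups, with a summed level of 9107 to 10387 TPM in Mock sgRNA against 8141 to 8743 TPM in SLC43A2 sgRNA. These ranges did not overlap. Cd3g (1130 to 544 TPM) and Trbc2 were lower past the threshold, Cd2 and Cd247 were higher, and 6 did not pass. Among all genes tested, 22.2% were lower and 22.8% higher. The calls of Trbc2, Cd2 and Cd247, unlike that of Cd3g, were lost in some other settings. Transcripts of other blood cells were present in the Mock sgRNA libraries and lower in the other group. The summed level of 15 monocyte and macrophage genes was 696 to 842 TPM in Mock sgRNA against 75.4 to 84.1 TPM in SLC43A2 sgRNA, and that of 9 B cell genes was 314 to 402 and 25.3 to 25.8 TPM. For 11 red blood cell genes the sums were 1016 to 1169 and 45.9 to 55.1 TPM. The Y-linked Eif2s3y averaged 51.4 and 1.03 TPM, so the sex of the cells and the guide cannot be told apart in this design. The part that these differences play in the results below was not tested. In bulk RNA, fewer neutrophils and less of a transcript per neutrophil cannot be told apart.

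The stretch around the start site is shown for 6 of the 10 genes. These are the 4 primary granule genes, and Ngp and Camp, a pair of secondary granule genes whose differences were unlike in size. Each window, from RefSeq on GRCm38.p6, holds 250 bases before and 50 after the annotated start, read along the gene. The gene spans given below come from another annotation, GENCODE. The Prtn3 window, and that of Lcn2, which is not shown, lie within the spans of those genes. Capitals mark GAGGAA, a form of the binding core of ETS factors such as PU.1, and TTGCNNAA, a form of the C/EBP binding site, each searched on both strands (TTCCTC and TTNNGCAA on the other strand).
Elane (GRCm38.p6, chr10:79886062-79886361, plus strand): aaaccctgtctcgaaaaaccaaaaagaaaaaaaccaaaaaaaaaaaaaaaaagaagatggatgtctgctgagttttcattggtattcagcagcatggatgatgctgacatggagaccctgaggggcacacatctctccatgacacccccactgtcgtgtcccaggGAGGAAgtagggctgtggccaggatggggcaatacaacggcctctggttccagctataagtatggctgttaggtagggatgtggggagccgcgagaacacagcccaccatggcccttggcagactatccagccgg
Prtn3 (GRCm38.p6, chr10:79879417-79879716, plus strand): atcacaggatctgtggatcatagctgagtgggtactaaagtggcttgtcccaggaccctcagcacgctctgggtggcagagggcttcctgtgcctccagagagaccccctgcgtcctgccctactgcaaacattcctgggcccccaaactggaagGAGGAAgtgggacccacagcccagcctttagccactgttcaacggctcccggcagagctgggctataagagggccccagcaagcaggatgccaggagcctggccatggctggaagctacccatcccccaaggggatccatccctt
Mpo (GRCm38.p6, chr11:87793534-87793833, plus strand): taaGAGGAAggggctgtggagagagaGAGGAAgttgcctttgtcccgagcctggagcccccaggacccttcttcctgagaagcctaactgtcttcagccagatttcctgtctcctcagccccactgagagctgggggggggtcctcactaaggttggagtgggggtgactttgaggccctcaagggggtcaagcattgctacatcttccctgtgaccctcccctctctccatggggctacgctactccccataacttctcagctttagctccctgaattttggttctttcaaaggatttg
Ctsg (GRCm38.p6, chr14:56102525-56102824, minus strand): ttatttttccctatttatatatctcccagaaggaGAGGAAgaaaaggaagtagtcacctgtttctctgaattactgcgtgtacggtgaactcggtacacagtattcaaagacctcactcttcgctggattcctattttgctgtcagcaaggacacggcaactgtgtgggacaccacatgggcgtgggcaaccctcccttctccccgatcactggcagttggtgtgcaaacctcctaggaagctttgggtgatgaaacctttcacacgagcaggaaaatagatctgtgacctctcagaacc
Ngp (GRCm38.p6, chr9:110419558-110419857, plus strand): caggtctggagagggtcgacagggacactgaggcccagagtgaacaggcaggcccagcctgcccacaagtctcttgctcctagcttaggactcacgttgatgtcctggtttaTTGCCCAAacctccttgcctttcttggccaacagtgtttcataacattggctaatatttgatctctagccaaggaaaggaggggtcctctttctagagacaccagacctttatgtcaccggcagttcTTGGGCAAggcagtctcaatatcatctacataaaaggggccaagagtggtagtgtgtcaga
Camp (GRCm38.p6, chr9:109849407-109849706, minus strand): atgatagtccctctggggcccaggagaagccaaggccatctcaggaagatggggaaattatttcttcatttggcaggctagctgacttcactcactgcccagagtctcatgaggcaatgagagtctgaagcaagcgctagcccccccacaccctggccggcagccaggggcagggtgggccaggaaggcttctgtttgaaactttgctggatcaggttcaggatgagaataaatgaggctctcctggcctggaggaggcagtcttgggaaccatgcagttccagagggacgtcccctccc

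GAGGAA or its complement was found in all 4 primary granule windows. In Elane it began 85 bases and in Prtn3 95 bases before the annotated start, in Ctsg 216 bases before it, and in Mpo at 247 and 224 bases before it. Of all 32851 RefSeq windows of this length, 28.3% held it. Among the secondary granule and calprotectin genes it was found in Ltf, Lcn2 and S100a8. TTGCNNAA was found in 4 of the 10 windows, those of Ngp, Ltf, Lcn2 and S100a9, and in 10.8% of all windows. The Camp window held neither motif, and no match of one motif overlapped a match of the other in any of the 10 windows. These are matches of letters only.

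All 10 genes were lower in the SLC43A2 sgRNA libraries (limma, adjusted p under 0.05), and for all 10 the groups did not overlap. Across all 13759 genes tested, 22.2% were lower past the same threshold and 28.3% did not overlap in that direction. The median log2 difference of the 10 was -2.11, and that of all genes tested was 0.03. All 10 passed the filter on low values, a mean TPM of 1 or more across the 6 libraries. Of these, 4 (Mpo, Elane, Prtn3 and Ltf) passed it only through their Mock sgRNA values, so that a difference was built into their passing. The other 6 averaged at least 1 TPM in each group. With no filter on low values, all 10 were again lower past the threshold.

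**Figure D1:**
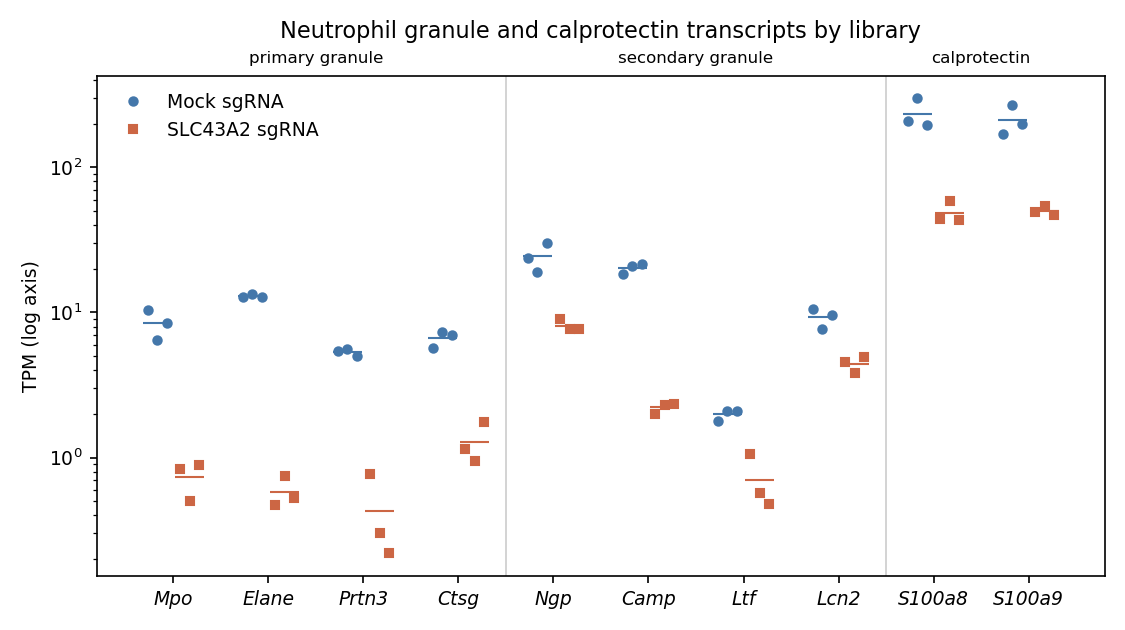
TPM of each gene in each library on a log axis, with Mock sgRNA libraries as blue circles, SLC43A2 sgRNA libraries as orange squares and horizontal bars at the group means of 3 libraries. Every orange square lies below every blue circle of the same gene. On the log axis the gap is widest for Elane. In TPM it is widest for S100a8, at 138 TPM, and narrowest for Ltf, at 0.73 TPM.

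The primary granule genes showed folds of 5.19 to 22.4. Elane, on GRCm38 chromosome 10 (79886247 to 79888215, plus strand), encodes the elastase that cuts extracellular matrix and bacterial proteins. It measured 12.9, 13.4 and 12.9 TPM in Mock sgRNA against 0.47, 0.75 and 0.53 TPM in SLC43A2 sgRNA. The Mock sgRNA libraries were nearly alike and all far above the others. Mean levels of 13.1 ± 0.323 and 0.583 ± 0.147 TPM (SD, n = 3 each) gave a 22.4-fold lower level. The log2 difference of -3.15 (SE 0.16, limma adjusted p = 3.1e-05) was the largest of the 10 genes, and 1.59% of all tested genes had a lower value.

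Mpo, on chromosome 11 (87793581 to 87804413, plus strand), encodes the enzyme that makes hypochlorous acid from hydrogen peroxide. Its level was 10.35, 6.5 and 8.46 TPM in Mock sgRNA against 0.83, 0.5 and 0.89 TPM in SLC43A2 sgRNA, an 11.4-fold lower mean (log2 difference -2.43, SE 0.22, limma adjusted p = 0.00033). Replicate 2 was the lowest library in each group, and the groups did not overlap. Mpo shares 512 exonic bases with Gm11505 on the opposite strand, which averaged 0 TPM in both groups.

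Prtn3 lies 3073 bases from Elane (chromosome 10, 79874476 to 79883174, plus strand) and encodes a protease that is the target of autoantibodies in human vasculitis. Its level was 5.46, 5.64 and 5.03 TPM in Mock sgRNA against 0.77, 0.3 and 0.22 TPM in SLC43A2 sgRNA, 12.5-fold lower. Replicate 1 was the highest of the SLC43A2 sgRNA libraries, and even it lay 4.26 TPM below the lowest Mock sgRNA value. The log2 difference was -2.18 (SE 0.22, limma adjusted p = 0.00049). Exons of Prtn3 share 159 bases with Plppr3 on the opposite strand, which averaged 1.36 and 0.58 TPM. Without strand information, reads of that stretch cannot be assigned to either gene.

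Ctsg, on chromosome 14 (56099881 to 56102574, minus strand), encodes a protease with activity against bacteria. Its values were 5.67, 7.3 and 6.96 TPM in Mock sgRNA against 1.15, 0.94 and 1.75 TPM in SLC43A2 sgRNA, a 5.19-fold lower mean. Its log2 difference of -1.75 (SE 0.20, limma adjusted p = 0.00097) was the smallest of the primary granule genes. It was also the only one of these 4 whose SLC43A2 sgRNA mean, 1.28 ± 0.420 TPM, was above 1 TPM.

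The secondary granule genes were less alike, with folds of 2.09 to 9.17. Camp, on chromosome 9 (109847379 to 109849617, minus strand), encodes the precursor of the antimicrobial peptide CRAMP. It measured 18.5, 20.8 and 21.6 TPM in Mock sgRNA against 1.98, 2.32 and 2.34 TPM in SLC43A2 sgRNA. The libraries of each group were close together, and the log2 difference was -2.73 (SE 0.14, limma adjusted p = 3.6e-05).

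Ngp, on the same chromosome (110419747 to 110423012, plus strand), encodes a cystatin-like protein and was the most abundant of the granule genes in both groups. Its level was 23.9, 19 and 30.1 TPM in Mock sgRNA against 8.95, 7.68 and 7.71 TPM in SLC43A2 sgRNA. The fold was 3.00 and the log2 difference -1.45 (SE 0.19, limma adjusted p = 0.0015). Within each library Camp stood at 0.774, 1.09 and 0.718 times the level of Ngp in Mock sgRNA and at 0.221, 0.302 and 0.304 times in SLC43A2 sgRNA. The ratio did not overlap between the groups, so in these libraries the difference in Camp was the larger one. This pair was picked after the values were seen and the ratio was not tested.

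Lcn2, on chromosome 2 (32384633 to 32388252, minus strand), encodes a protein that binds bacterial siderophores and is also made outside neutrophils, in epithelium and macrophages. Its level was 10.5, 7.72 and 9.62 TPM in Mock sgRNA against 4.55, 3.83 and 4.96 TPM in SLC43A2 sgRNA. Its fold of 2.09 was the smallest of the 10 genes (log2 difference -0.91, SE 0.17, limma adjusted p = 0.0060). Ltf, on chromosome 9 (111019271 to 111042767, plus strand), encodes an iron-binding protein of specific granules and of milk. It was the lowest of the 10 in Mock sgRNA, at 1.79, 2.08 and 2.1 TPM, against 1.06, 0.57 and 0.48 TPM in SLC43A2 sgRNA. Its log2 difference of -0.83 (SE 0.23, limma adjusted p = 0.0236) was the smallest on that scale and its call the least firm. The call was lost without Mock sgRNA replicate 2 (adjusted p = 0.0501), SLC43A2 sgRNA replicate 2 (0.0593) or SLC43A2 sgRNA replicate 3 (0.0877), each left out alone, and with quantile normalization (log2 difference -0.38, adjusted p = 0.220; lowest over its alternatives 0.0166).

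S100a8 and S100a9 were by far the most abundant of the 10. They lie 22597 bases apart on chromosome 3, S100a8 at 90668978 to 90670035 on the plus strand and S100a9 at 90692632 to 90695721 on the minus strand. S100a8 stood at 210.1, 298 and 196 TPM in Mock sgRNA against 43.9, 58.2 and 43.6 TPM in SLC43A2 sgRNA. S100a9 stood at 169, 269.8 and 199 TPM in Mock sgRNA against 49.0, 53.8 and 46.9 TPM in SLC43A2 sgRNA. Replicate 2 was the highest library for both genes in both groups, and the lowest Mock sgRNA library lay 138 TPM (S100a8) and 115 TPM (S100a9) above the highest SLC43A2 sgRNA library. The folds were 4.83 for S100a8 and 4.26 for S100a9, with log2 differences of -2.24 (SE 0.20) and -2.04 (SE 0.19; limma adjusted p = 0.00034 and 0.00035). S100a8 stood at 1.11 ± 0.128 times S100a9 in Mock sgRNA and at 0.97 ± 0.0985 times in SLC43A2 sgRNA (SD, n = 3 each), ranges that overlapped. In both groups the ratio of the subunit transcripts was close to 1.

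**Figure D2:**
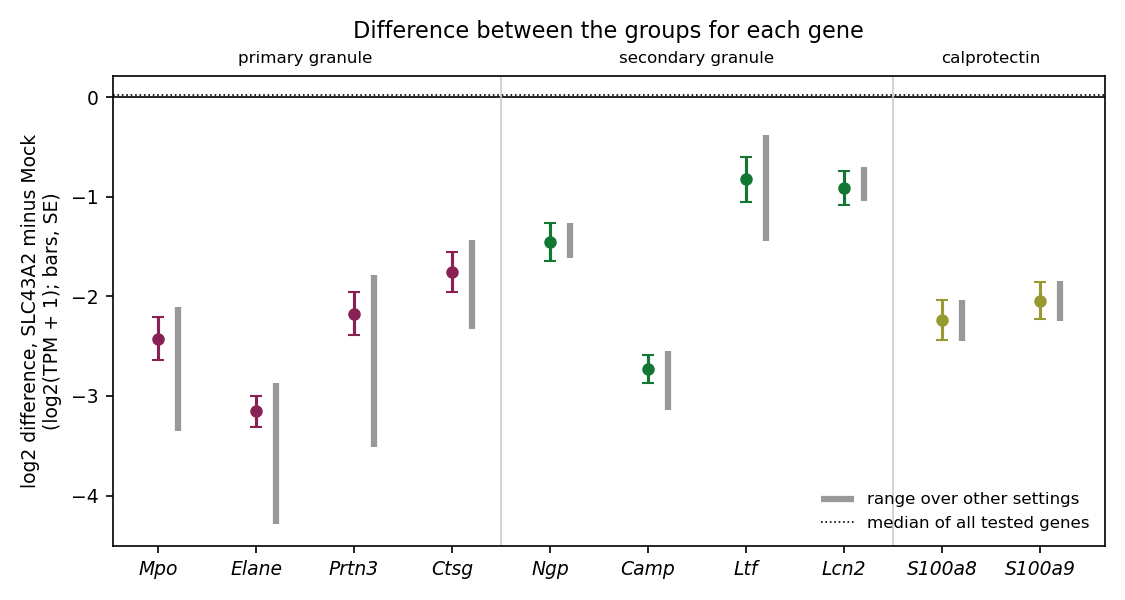
Log2 difference of each gene (SLC43A2 sgRNA minus Mock sgRNA, on log2(TPM + 1)) with its SE from limma, colored by storage site. Grey bars give the range over the other settings tried, and the dotted line is the median of all tested genes at 0.03; every grey bar lies below 0, from -0.38 at the top of the Ltf bar to -4.29 at the bottom of the Elane bar.

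Summed over each site, the primary granule genes stood at 34.4, 32.9 and 33.3 TPM in Mock sgRNA against 3.22, 2.49 and 3.39 TPM in SLC43A2 sgRNA, an 11.0-fold lower mean. The secondary granule genes summed to 54.7, 49.6 and 63.5 TPM and to 16.5, 14.4 and 15.5 TPM, 3.61-fold lower. The calprotectin pair summed to 379, 568 and 395 TPM and to 92.9, 112 and 90.5 TPM, 4.54-fold lower. For each site the sums of the groups did not overlap. The primary sum was 0.605 ± 0.0714 times the secondary sum in Mock sgRNA and 0.195 ± 0.0230 times in SLC43A2 sgRNA (SD, n = 3 each). That ratio ran from 0.525 to 0.662 in the first group and from 0.173 to 0.219 in the second, without overlap. In SLC43A2 sgRNA, Mpo, Elane and Prtn3 of the primary sum and Ltf of the secondary sum averaged below 1 TPM. Scores over chosen genes were not tested. Ngp was the largest part of the secondary sum in both groups, and the fold of Camp, 9.17, lay within the range of the primary granule genes.

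**Figure D3:**
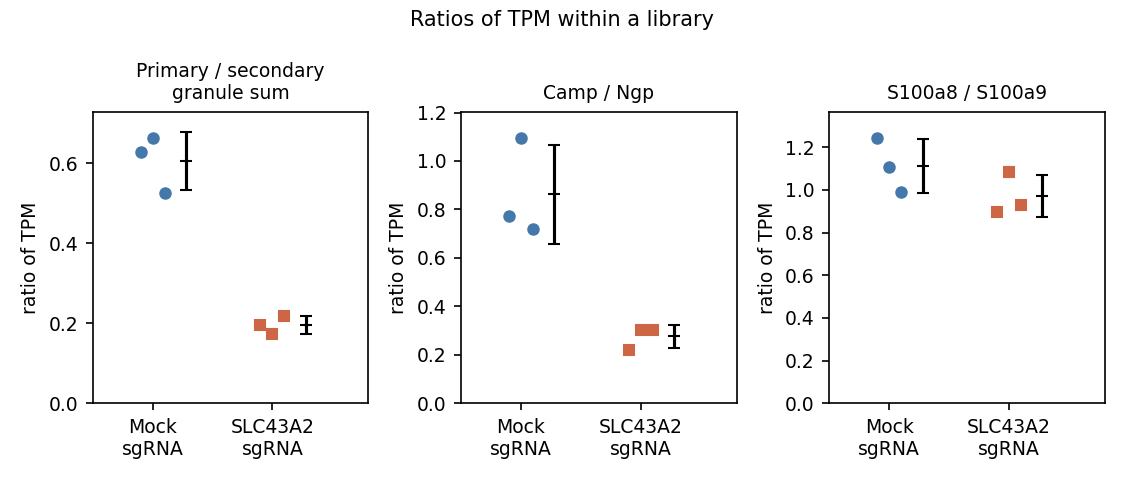
Ratios of TPM within each library for the primary over the secondary granule sum, Camp over Ngp, and S100a8 over S100a9, with Mock sgRNA as circles, SLC43A2 sgRNA as squares, and black bars at the mean and SD of 3 libraries. The first 2 ratios do not overlap between the groups (0.525 to 0.662 against 0.173 to 0.219 for the first), whereas the calprotectin ratio does.

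The order of the levels changed with these differences. In Mock sgRNA it ran S100a8, S100a9, Ngp, Camp, Elane, Lcn2, Mpo, Ctsg, Prtn3 and Ltf. The ranges of S100a8 and S100a9, of Ngp and Camp, of Lcn2 and Mpo, and of Mpo and Ctsg overlapped, and the other neighbours in that order did not. In SLC43A2 sgRNA the order was S100a9, S100a8, Ngp, Lcn2, Camp, Ctsg, Mpo, Ltf, Elane and Prtn3. There the ranges of the calprotectin pair overlapped, as did each step from Mpo to Ltf, Elane and Prtn3. Elane went from place 5 to place 9, moving below Lcn2, Ctsg, Mpo and Ltf; Camp was above it in both groups.

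Other granule proteins were read from a list of 18 genes, of which 7 reached the filter, 5 of them lower and 2 higher (median log2 difference -1.78). Beside the counts of this and the following lists stand shares of 22.2% lower and 22.8% higher among all genes tested. The antibacterial protein Pglyrp1 fell from 102 ± 6.26 to 13.5 ± 1.36 TPM (log2 difference -2.83) and the lysozyme gene Lyz2, which macrophages also express, from 347 ± 38.2 to 26.9 ± 0.575 TPM (-3.63). The gelatinase gene Mmp9 (-1.78), haptoglobin, Hp (-1.90), and the chitinase-like Chil3 (-1.43) also fell; Mmp9 passed the filter through Mock sgRNA alone (3.54 against 0.313 TPM). The 2 that rose are not restricted to neutrophils. Srgn, the proteoglycan core of granules in lymphocytes as well, rose from 1192 to 2464 TPM (log2 difference 1.05, limma adjusted p = 0.00033). Ctsc, the peptidase that activates elastase, cathepsin G and proteinase 3 and also the granzymes, rose from 61.1 to 91.9 TPM (0.58, limma adjusted p = 0.0236); this call was lost without Mock sgRNA replicate 1 or 2, without SLC43A2 sgRNA replicate 1 or 3, and with scaling to protein-coding genes (adjusted p up to 0.0857). Of the genes below the filter, Ms4a3, a marker of granulocyte and monocyte progenitors, stood at 0.67, 1.32 and 1.3 TPM in Mock sgRNA against 0.46, 1.05 and 0.86 TPM in SLC43A2 sgRNA, with overlap. Fcnb stood at 0.723 and 0.04 TPM on average and Bpi was listed at 0 in every library.

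Genes of mature neutrophils were low and mixed. Of 24 such genes in the table, 14 reached the filter, of which 7 were lower, 2 higher and 5 did not pass (median log2 difference -0.89). Among all genes tested, 22.2% were lower and 22.8% higher. Of the 14, 5 passed the filter through 1 group alone: G0s2, Stfa3 and Cxcr2 through Mock sgRNA, and Acod1 and Clec4e through SLC43A2 sgRNA. A difference was built into the passing of these 5. The lipolysis inhibitor gene G0s2 fell from 14.9 ± 1.91 to 0.387 ± 0.162 TPM (log2 difference -3.52, limma adjusted p = 3.3e-05). Stfa3, a stefin with near-identical copies and therefore an uncertain level, stood at 4.02, 4.05 and 5.22 TPM and was listed at 0 in all SLC43A2 sgRNA libraries. The resistin-like Retnlg fell from 12.8 to 1.70 TPM and the formyl peptide receptor gene Fpr1 from 7.29 to 1.20 TPM. Il1r2, the decoy receptor of interleukin-1 and the most abundant of the list, averaged 16.1 and 16.5 TPM and did not pass (adjusted p = 0.89). It is also expressed by regulatory T cells. Acod1, the itaconate enzyme gene, rose from 0.263 to 2.16 TPM and the lectin receptor gene Clec4e from 0.967 to 2.93 TPM, a call lost without SLC43A2 sgRNA replicate 1 or 3 (limma adjusted p up to 0.0556). Surface genes that define neutrophils were low. Ly6g, near 0 throughout, was at 0.52, 0 and 0.35 TPM in Mock sgRNA against 0.12, 0.36 and 0.24 TPM in SLC43A2 sgRNA. Cxcr2 averaged 1.41 and 0.773 TPM (adjusted p = 0.13), and the G-CSF receptor gene Csf3r, below the filter, stood at 1.84, 1.82 and 1.57 TPM against 0.15, 0.15 and 0.2 TPM.

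The listed granulocyte transcription factors, not all of which activate granule genes, ranged widely in level. Cebpe, needed for secondary granule genes, was at 0.06, 0.26 and 0.12 TPM in Mock sgRNA against 0, 0 and 0.11 TPM in SLC43A2 sgRNA, and Cebpa averaged 0.53 and 0.153 TPM. Both were below the filter. Of the 8 factors listed, 5 reached the filter, 2 of them lower and 3 higher. Spi1, which encodes PU.1, fell from 7.77 to 3.11 TPM (log2 difference -1.09, limma adjusted p = 0.0047) and Runx1 from 11.3 to 5.36 TPM (-0.93), a call lost without Mock sgRNA replicate 1 or 3 (limma adjusted p up to 0.0561). Those that rose were Irf8 (73.9 to 288 TPM), Gfi1 (19.0 to 61.0 TPM) and Cebpb (17.5 to 28.4 TPM). All 5 of these factors, Spi1 and Runx1 included, are also expressed by lymphocytes or monocytes. Progenitor genes were low: of 9 listed, 2 reached the filter and neither passed. Myb averaged 7.49 and 9.29 TPM (adjusted p = 0.28) and Kit 1.09 and 0.953 TPM (adjusted p = 0.79).

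Of 10 listed factors that recruit or expand neutrophils, 5 reached the filter and these 5 rose, against 22.8% higher among all genes tested. Of the 5, Il17a, Il17f and Cxcl3 passed the filter only through the SLC43A2 sgRNA libraries, so that a difference was built into their passing. Csf2, encoding GM-CSF, rose from 1.16 ± 1.01 to 18.9 ± 4.64 TPM. Il17a, which acts on stroma to raise neutrophil chemokines, rose from 0.21 ± 0.105 to 7.76 ± 1.30 TPM, and Il17f from 0.63 to 6.13 TPM (log2 difference 2.19). The chemokine gene Cxcl3 stood at 0.33, 0 and 0 TPM in Mock sgRNA against 2.51, 2.31 and 1.6 TPM in SLC43A2 sgRNA, and Cxcl2 rose from 3.07 to 5.32 TPM (0.62, limma adjusted p = 0.033). The Cxcl2 call was lost without Mock sgRNA replicate 1 or 3, without SLC43A2 sgRNA replicate 1 or 3, and in other settings, 7 of 15 in all (adjusted p up to 0.121). Cxcl1, below the filter, stood at 0.04, 0 and 0 TPM and at 2, 1.43 and 1.85 TPM. Csf3, encoding G-CSF, did not exceed 0.38 TPM in any library.

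Inhibitors and receptors of the granule proteins went both ways, with 3 lower, 3 higher and 1 not passing of 7 that reached the filter, out of 13 listed; 2 of the 7, Ager and Lrp1, passed the filter through Mock sgRNA alone. Slpi, the secreted inhibitor of elastase and cathepsin G, fell from 229 ± 24.2 to 25.2 ± 7.92 TPM (log2 difference -3.17, limma adjusted p = 0.00011). Serpinb1a, the intracellular inhibitor of neutrophil serine proteases, fell from 12.0 to 3.74 TPM (-1.44). Serpinb6b, a serpin of cytotoxic lymphocytes, rose from 92.6 to 360 TPM (1.95). Bsg, a receptor for S100a9 that activated T cells express, rose from 243 ± 23.7 to 676 ± 36.7 TPM (1.48). The other calprotectin receptors were low, with Tlr4 averaging 0.68 and 0.153 TPM and Ager 1.31 and 0.753 TPM (adjusted p = 0.35). Among the 6 NADPH oxidase genes, 4 fell and 1 rose. Cyba, the most abundant, averaged 707 and 653 TPM and did not pass (limma adjusted p = 0.65). Cybb, the catalytic subunit of phagocytes, fell from 25.7 to 3.67 TPM (-2.60), whereas Ncf1 rose from 11.0 to 21.1 TPM (0.89, limma adjusted p = 0.021), a call lost without Mock sgRNA replicate 1 or SLC43A2 sgRNA replicate 1 or 3 (adjusted p up to 0.0711).

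Other granulocytes did not all follow. Of 14 genes of basophils, mast cells and eosinophils, 6 reached the filter. Prg2 (12.9 to 1.63 TPM) and Ccr3 (5.67 to 0.11 TPM), which eosinophils express, fell. Ccr3 passed the filter through Mock sgRNA alone. The eosinophil genes Prg3, Epx and Siglecf were below the filter and overlapped between the groups. Their means were 0.78 and 0.447 TPM (Prg3), 0.13 and 0.03 TPM (Epx), and 0.147 and 0.0567 TPM (Siglecf). The basophil proteases Mcpt8 (5.01, 6.11 and 6.59 TPM against 5.32, 8.44 and 7.64 TPM) and Prss34 (6.12, 2.53 and 7.96 against 6.47, 6.54 and 6.17 TPM) overlapped between the groups and did not pass (adjusted p = 0.39 and 0.52). Monocyte and macrophage genes fell in all 14 cases that reached the filter of 15 listed (median log2 difference -2.58; 6 of the 14 passed the filter through Mock sgRNA alone, and the call of Fcgr1 was lost in 9 of 15 alternatives, with limma adjusted p up to 0.235), with a sum 9.48-fold lower in SLC43A2 sgRNA. That compares with 11.0-fold for the primary granule sum, 3.61-fold for the secondary granule sum and 4.54-fold for calprotectin in the same libraries. Lyz2, also on the list of other granule proteins, averaged 347 of the 758 TPM in the monocyte and macrophage sum in Mock sgRNA. In SLC43A2 sgRNA it averaged 26.9 of 79.9 TPM. Since monocytes also express S100a8, S100a9 and Lcn2, how much of these 3 came from neutrophils was not tested. Of the 13 hepatocyte and hepatoma genes in the table, the 2 that reached the filter, Afp and Apoa2, did not pass. Afp, the most abundant, stood at 4.8, 4.39 and 7.31 TPM in Mock sgRNA against 2.62, 3.97 and 4.48 TPM in SLC43A2 sgRNA. Apoa2 averaged 2.04 and 1.57 TPM, and Alb was listed at 0 in all 6 libraries.

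Genes next to the 10 on the chromosome were called in both directions. Of 66 tested protein-coding genes within 200000 bases of the 10 genes, 16 were lower, 21 higher and 29 did not pass (median log2 difference 0.10, against 0.03 for all genes tested, of which 22.2% were lower and 22.8% higher). Of the 66, 8 passed the filter through 1 group alone. On chromosome 14, Ctsg lies in the cluster of mast cell proteases and granzymes. There Mcpt8, 14608 bases away, did not pass, and Gzmc and Gzmb, 128867 and 156264 bases away, rose by 1.65 and 2.17 on the log2 scale; Gzmc (mean levels 0.49 and 3.72 TPM) passed the filter through SLC43A2 sgRNA alone. Gzmb, the granzyme of cytotoxic T cells, averaged 990 ± 299 TPM in Mock sgRNA against 4328 ± 277 TPM in SLC43A2 sgRNA. Around Elane and Prtn3, 19 neighbours were tested, of which 4 were lower, 6 higher and 9 did not pass. Med16, 6493 bases from Elane, averaged 5.10 and 6.24 TPM (adjusted p = 0.61). Gzmm, at the far end of that window and named after its values were seen, fell from 14.7 to 0.477 TPM and passed the filter through Mock sgRNA alone. Near Camp, Nme6 rose from 20.0 to 48.8 TPM. Near Ltf, 6 genes were tested, of which 3 were lower, 1 higher and 2 did not pass. Als2cl (log2 difference -1.69), Tmie (-1.36) and Fam240a (-1.82) fell, and Fam240a passed the filter through Mock sgRNA alone. The chemokine receptor-like gene Ccrl2 rose from 3.00 to 9.14 TPM (log2 difference 1.35). Of 6 genes tested near Mpo, 2 were lower and 1 higher, and of 7 near Ngp, 3 were lower and 1 higher.

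The S100 cluster was split. S100a6 fell from 299 to 53.6 TPM (log2 difference -2.46) and S100a4 from 279 to 9.63 TPM (-4.71), both larger log2 differences than those of S100a8 and S100a9. S100a13 fell by 0.48 on the log2 scale, a call lost with scaling to T cell genes (limma adjusted p = 0.113) and without Mock sgRNA replicate 2 or SLC43A2 sgRNA replicate 1 or 3, and S100a1 rose from 8.14 to 16.2 TPM (0.94, limma adjusted p = 0.011). S100a4 and S100a6 are also expressed by T cells and macrophages.

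**Figure D4:**
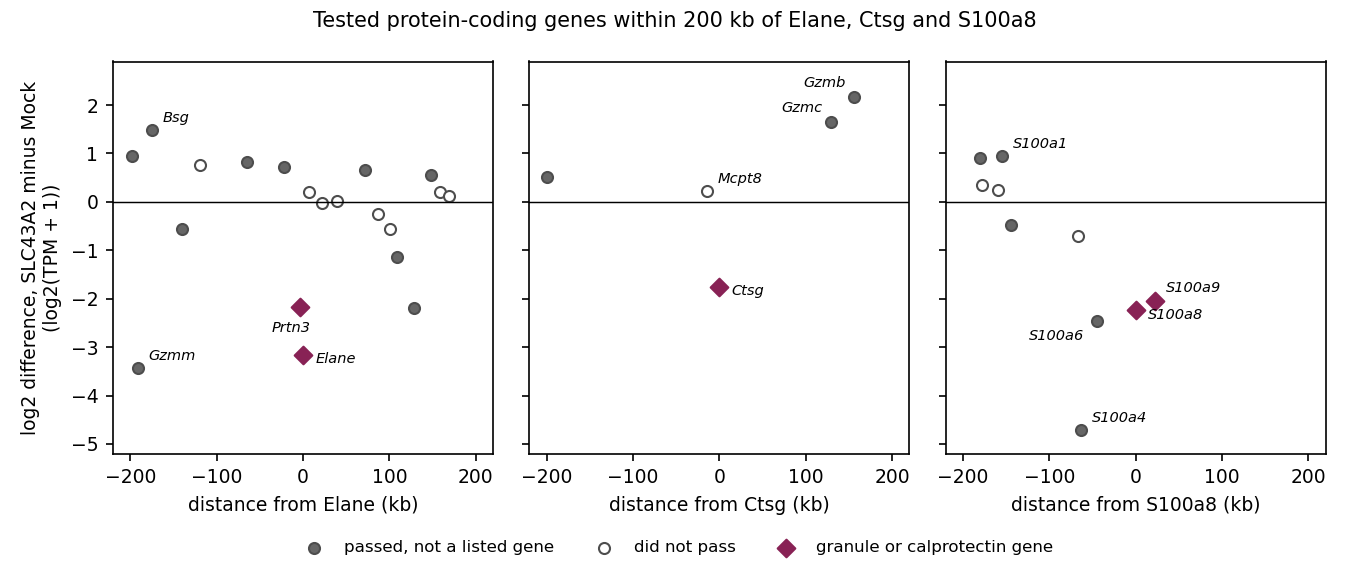
Log2 difference of tested protein-coding genes within 200 kb of Elane, Ctsg and S100a8 against distance from that gene, with filled circles for genes past the threshold, open circles for the others, and diamonds for granule and calprotectin genes. Gzmb and Gzmc lie above 0 and Ctsg below it in the same cluster, and S100a4 and S100a6 lie below both calprotectin genes.

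Genes other than the 10 with the nearest profile were ranked by the root mean square distance of centred log2(TPM + 1) values over the 6 libraries. Nearest to the mean primary granule profile were Matk, a kinase of blood cells (distance 0.0747), Ly6c2, a surface antigen of monocytes and memory T cells, Il7r, the interleukin-7 receptor, Zfp945 and Adcy7. Il7r stood at 116, 128 and 115 TPM in Mock sgRNA against 21.8, 20.2 and 20.7 TPM in SLC43A2 sgRNA. Nearest to the secondary granule profile were Syt11 (0.0457), F13a1 from the monocyte and macrophage list, Slamf6, Klra8 and H3c1. All of these genes were themselves lower past the threshold (limma), as nearness to these profiles requires.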

How the data were processed

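RNA was sequenced from 6 libraries, 3 Mock sgRNA and 3 SLC43A2 sgRNA, grouped and numbered by the sample titles. The authors deposited gene-level TPM for 57180 genes, rounded to 2 decimals and with the same sum in each library, so depth and counting error are unknown and no interval or floor is given. Per the labels' protocols, libraries were made with the Illumina TruSeq RNA kit; the same text speaks of retinas and may not describe these samples. Bowtie 0.12.2 and build mm8 appear in the submitters' processing notes without a stated role; counting tool and annotation: not given in the sources used here. Coordinates and exon overlaps come from GENCODE M21 (GRCm38), promoters from RefSeq (GRCm38.p6), where all 10 genes matched.

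The groups were compared in R 4.3.3 by limma 3.58.1 (lmFit, eBayes with trend, two-sided) on log2(TPM + 1), which understates the change of low genes, over the 13759 genes with a mean of at least 1 TPM. Benjamini-Hochberg adjustment covered all of them, and the threshold was 0.05. Folds are ratios of mean TPM. The fit was tested on simulated data. The 10 genes, the other lists and the tests were chosen with earlier results of these data known. Genes to be named were the 10, Slc43a2, and, from each list, up to 2 largest rises, 2 largest falls and the most abundant gene. Neighbours within 200000 bases in loci of up to 10 tested genes and the 5 nearest profiles were also to be named. The text names only part of these, and many neighbours are left out. Single genes beyond this rule were named after their values were seen. Alternatives covered pseudocounts of 0.1 and 0.5, other filters and scalings, the replicate number as a block, array weights, and each library left out in turn.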

Additional observations from a re-analysis of the deposited data

How the results depend on the processing

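Each of the 10 genes kept its direction under all alternatives tried, and 9 of them kept their call in each one where they were tested; Ltf lost it in 5 of 15. The number of the 10 past the threshold was 9 to 10 when single libraries were left out and 6 of the 6 that remained with a minimum of 5 TPM, a filter that removed 4. Same-numbered libraries showed no shared deviation over the genes tested: their deviations from the group means correlated at 0.00106, 0.0606 and -0.0313. These values cannot show whether the libraries were paired by design. With the replicate block, 9 of the 10 passed and Ltf did not (adjusted p = 0.0536), and over all genes 3038 were lower and 3319 higher.

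Over all genes, 3060 were lower and 3139 higher. The lower count was 1882 with a minimum of 5 TPM and 2265 to 2856 without single libraries, and the higher count was 1979 to 3204 without single libraries; it was 2000 without SLC43A2 sgRNA replicate 1 and 1979 without replicate 3. The share of calls that were higher was 50.6%, against 63.8% with libraries scaled to T cell genes and 40.0% scaled to protein-coding genes. These scalings, and quantile normalization, moved the median of all genes by 0.17, -0.13 and 0.11 on the log2 scale, small beside the median of -2.11 for the 10 genes. The log2 ratio of the primary granule sums was -3.47 as deposited and -3.26 scaled to T cell genes. That of the secondary granule sums was -1.85, against -1.64 scaled to T cell genes and -2.00 scaled to protein-coding genes. Depth limits Mpo, Elane, Prtn3 and Ltf most, whose SLC43A2 sgRNA means lay below 1 TPM.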
